A study of Mus musculus with 20 samples.

Results

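The genes described here encode the proteins of the cytosolic ribosome. Members were chosen by name: 92 of the 54532 genes in the deposited tables are annotated as protein coding and carry an Rpl, Rps or Rplp symbol followed by a number, without the S6 kinases (Rps6k) and the symbols that end in bp1. By name and known role, 46 are genes of the 60S (large) subunit, 30 of the 40S (small) subunit, 8 are paralogs of another member and 8 have a pseudogene-style "-ps" symbol although they are annotated as protein coding. They lie on 20 chromosomes. The rule misses ribosomal proteins with other names, such as those of Rpsa, Fau and Rack1, which are given apart.

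The study followed colorectal liver metastasis (CRLM) grown from Mc38 cells, a mouse colon adenocarcinoma line on the C57BL/6 background, of which 1000000 were injected into the spleen to reach the liver through the portal vein. All mice were wild type C57BL/6, aged 6 to 8 weeks by the Methods. For sex the labels of the tissue samples give male and the Methods give female. Normal liver from saline-treated mice at day 0 (con) was measured in 2 libraries, and 1 library (L-con) came from liver without tumor of a mouse with CRLM at 12 days post-injection (dpi). Metastases of low tumor size (Lt, 9 dpi) and of medium size (Mt3 at 9 dpi, Mt2 and Mt1 at 11 dpi) had 2 libraries in each group. Metastases of high tumor size (Ht, 12 dpi) had 3, of which the Methods call numbers 1 and 3 identical, and these were summed to 1 sample. F4/80+ and CD11b+ cells were isolated with microbeads from Mt2 metastases at 11 dpi, each in 3 libraries. Tissue samples were mixtures of liver and tumor, so fewer cells of a type and less RNA per cell cannot be told apart. By the Methods each tissue group other than L-con came from a pair of livers. For the sorted libraries no source used here says that they came from separate mice, so p-values there measure the spread between samples, which may be technical.

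The cytosolic ribosome translates every mRNA exported from the nucleus. Its small subunit reads the message, its large subunit joins the amino acids, and the stalk of P-proteins (Rplp0, Rplp1, Rplp2), held next to Rpl12, recruits translation factors. Ribosomal protein mRNAs are short and abundant, and most begin with a run of pyrimidines, the TOP motif, through which growth signals control their translation. Mammalian genomes also hold many processed copies of these genes, so reads of some members are hard to assign.

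The coding sequences of Rps27, a 40S protein, and its copies show which reads can be told apart. Rps27rt is a copy without introns, and Rps27l is a paralog known as a target of p53. Rps27rt and Rps27 had 0 differing bases over 252 coding positions, so reads within the coding sequence cannot separate them, whereas Rps27l was 76.7% identical to Rps27 when aligned. The sequences are from GENCODE transcripts (GRCm38), without the stop codon, with capitals in Rps27l where its base differs from that of Rps27 at the same position. The coding parts span chr3:90212728-90213615 (minus strand, introns left out) for Rps27, chr9:114982456-114982707 (minus strand) for Rps27rt and chr9:66946175-66949354 (plus strand, introns left out) for Rps27l.
Rps27: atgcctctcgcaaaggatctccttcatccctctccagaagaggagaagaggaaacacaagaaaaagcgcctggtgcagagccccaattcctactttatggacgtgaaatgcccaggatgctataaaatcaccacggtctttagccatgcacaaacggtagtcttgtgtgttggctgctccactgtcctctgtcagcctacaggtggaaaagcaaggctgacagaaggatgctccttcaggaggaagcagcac
Rps27rt: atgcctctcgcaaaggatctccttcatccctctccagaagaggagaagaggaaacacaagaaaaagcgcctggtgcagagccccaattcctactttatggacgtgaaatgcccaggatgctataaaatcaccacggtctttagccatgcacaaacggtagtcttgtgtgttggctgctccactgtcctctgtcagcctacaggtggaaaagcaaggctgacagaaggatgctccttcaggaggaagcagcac
Rps27l: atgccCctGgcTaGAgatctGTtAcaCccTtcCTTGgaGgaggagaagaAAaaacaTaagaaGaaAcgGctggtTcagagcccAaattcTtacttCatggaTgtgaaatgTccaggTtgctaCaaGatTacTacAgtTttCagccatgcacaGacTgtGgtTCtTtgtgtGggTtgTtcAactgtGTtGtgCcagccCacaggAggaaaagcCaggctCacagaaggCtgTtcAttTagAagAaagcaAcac

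Start sites are shown because the pyrimidine run is a feature of the family that the name rule did not use. RefSeq (GRCm38.p6) promoters were matched for 64 of the 92 members, at 76 starts. Within 15 bases on either side of the annotated start, read on the gene's strand, an unbroken run of at least 8 pyrimidines (C or T) stood in 28 of these windows (36.8%), against 12.0% of 32851 promoters in the table. Windows are printed for some of the members whose levels are given further on, each with its longest pyrimidine run (the first of equal ones) in capitals. They are chr5:115559452-115559481 (Rplp0, plus strand), chr2:32961697-32961726 (Rpl12, plus strand), chr7:3704026-3704055 (Rps9, plus strand), chr7:118116133-118116162 (Rps15a, minus strand), chr3:90213634-90213663 (Rps27, minus strand), chr9:114982725-114982754 (Rps27rt, minus strand) and chr9:66946071-66946100 (Rps27l, plus strand, the first of its annotated starts). A window without a long run says only that these letters are not in it.
Rplp0: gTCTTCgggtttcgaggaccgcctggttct
Rpl12: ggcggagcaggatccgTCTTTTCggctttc
Rps9: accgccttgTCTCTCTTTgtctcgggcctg
Rps15a: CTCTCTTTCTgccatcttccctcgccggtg
Rps27: atttccgctttcgCTCCTTTCCggcggtga
Rps27rt: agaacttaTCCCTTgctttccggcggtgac
Rps27l: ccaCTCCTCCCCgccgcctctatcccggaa

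Libraries held 16032085 to 20548370 counts, and 3 counts corresponded to 0.146 to 0.187 CPM (counts scaled to library size), covering counting error only. Members took 1.66% and 1.42% of all counts in the con libraries and 1.46% in L-con. Lt libraries gave 2.03% and 2.88%, Mt3 1.90% and 2.81%, Mt2 2.49% and 4.83% and Mt1 2.92% and 4.10%. Ht libraries 1, 2 and 3 gave 7.76%, 5.54% and 5.29%, above every other tissue library. F4/80+ libraries gave 3.80%, 4.15% and 3.82% and CD11b+ libraries 4.35%, 4.21% and 8.35%, so CD11b+ library 3 stood apart from the other 5 sorted libraries. The 288 genes that are named like members but annotated as pseudogenes held counts equal to 3.44% to 4.4% of those on the members.

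**Figure D1:**
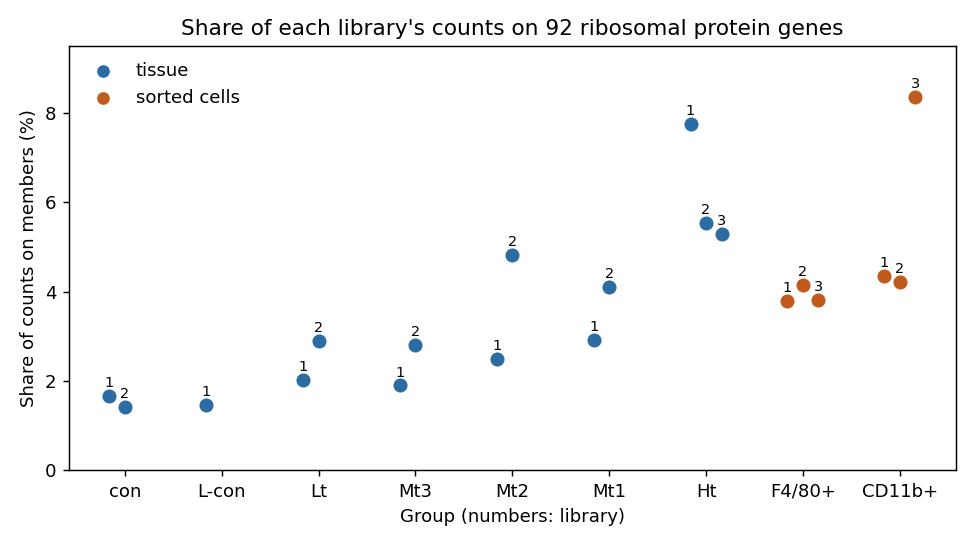
Share of each library's counts (percent, vertical axis) that fell on the 92 members, by group; each point is 1 library. Ht libraries lie between 5.29% and 7.76% against 1.42% and 1.66% in con, and CD11b+ library 3 lies at 8.35%.

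Levels differed widely between members. Per kilobase of the deposited gene length (FPKM, TMM-scaled, mean over the 13 tissue samples), Rplp1, an acidic stalk protein, had the highest level at 1593, followed by Rplp0 at 760.2 and Rps3a1, a 40S protein, at 709. The lowest levels among tested members that are no paralogs were those of Rpl36a-ps1 (1.90), Rps10, a 40S protein (1.43), and Rpl24, a 60S protein (1.21). Rps10 and Rpl24 are core ribosomal proteins, yet Rpl24 had 2 to 41 counts in a tissue library, and both levels are uncertain because near-identical copies can hold their reads. The order depends on the length used: per kilobase of the principal mRNA, the 3 highest were Rplp1 (1593), Rpl41, a 60S protein (1193), and Rps2, a 40S protein (1173), with Rplp0 at 929 and Rps3a1 at 709. Of the paralogs, FPKM was 251 for Rps27rt, 203 for Rps27l, 30.6 for Rpl7l1, 16.9 for Rpl22l1 and 0.671 for Rpl36al.

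Of the 92 members, 86 passed the expression filter in tissue, 86 in the sorted cells and 88 in the joint fit of both. Rpl10l and Rpl36-ps4 had 0 counts in all 20 libraries, which allows up to the 3-count level given above in each. The others left out in tissue were Rpl39l with at most 2 counts, Rpl3l with at most 4, Rpl13a-ps1 with at most 1, and Rpl9-ps1 with 0.

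Several members differed widely between libraries of the same label, many of them short but not all. In Ht library 1, Rps27 had 19061 counts, against 3103 in library 2 and 3680 in library 3, although libraries 1 and 3 are called identical. The log2 difference of library 3 minus library 1 was -2.43 for Rps27, -2.24 for Rps28, a 40S protein, and -2.60 for Rpl9-ps6, whose mRNA is longer (714 bases, against 345 for Rps27). Rps27rt, with 374 bases, had 0.19. Furthest the other way was Rpl24 (1.12), at 10 counts in library 1 and 38 in library 3. Among members with a mean log2 CPM of at least 1, those furthest that way were Rpl10-ps3 (0.50), Rps27a, which encodes ubiquitin fused to a 40S protein (0.35), and Rpl27-ps3 (0.30). Rps28 had 354, 49.02 and 74.6 CPM in libraries 1, 2 and 3, so library 1 was the one apart. Libraries 1 and 3 had a chi-square, divided by its degrees of freedom, of 27.6 across all genes and 442 across members, and libraries 2 and 3 of 12.1 and 92, where sampling noise alone gives about 1.

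Over all members the difference followed the length of the mature mRNA more closely than the deposited gene length, which joins all exons of a gene. Rps27, for example, has a deposited length of 1043 bases and a principal mRNA of 345. Over 83 members, Spearman's rho of the difference between Ht libraries 3 and 1 was 0.19 with gene length, 0.41 with mRNA length and 0.50 with coding length, a description over genes that share their libraries. Members with mRNAs of 500 bases or less had a median of -0.86 (17 genes), and those above 500 and up to 1000 bases one of -0.48 (47 genes). Above 1000 and up to 2000 bases the members' median was -0.52 (15 genes), no nearer to 0 than in the class before it, where other genes had -0.11. Other protein-coding genes went from -0.57 at 500 bases or less (63 genes) to 0.15 over 4000 bases (3782 genes). Between Ht libraries 3 and 2 the medians of the members in the first 2 of these classes were 0.14 and -0.10.

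CD11b+ library 3 had a gradient of the same kind. Its log2 difference from the mean of libraries 1 and 2 had a median of 1.52 over 18 members of 500 bases or less, and of 1.26 over 48 members above 500 and up to 1000 bases. Other genes went from 1.12 at 500 bases or less to -0.51 over 4000 bases. Above 1000 and up to 2000 bases, 15 members had a median of 1.14 and other genes one of 0.45. The part of RNA quality or library preparation in either gradient was not tested.

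**Figure D2:**
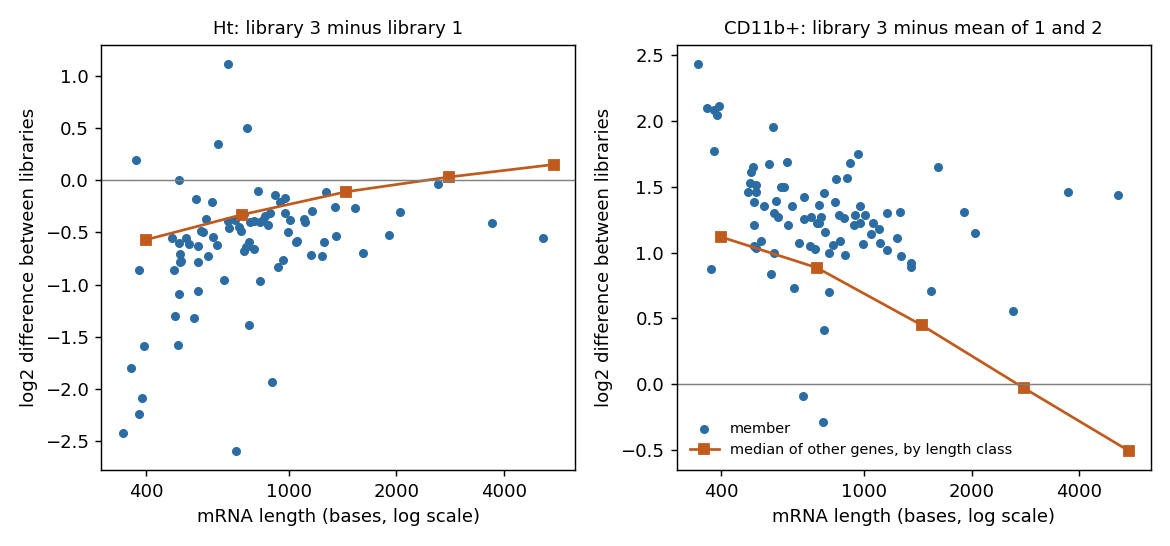
Log2 difference between libraries of the same label (vertical axis) against mRNA length in bases (log axis), in Ht (left) and CD11b+ (right); blue points are members with a mean of at least 20 counts and orange squares are medians of other protein-coding genes by length class. The medians of other genes go from -0.57 to 0.15 in Ht and from 1.12 to -0.51 in CD11b+ as length grows.

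Short members also varied within the other tissue groups. The median log2(CPM + 1) of 17 members of 500 bases or less, minus that of 66 longer ones, was -1.58 and -0.91 for con, with Lt at -0.46 and -0.64, Mt3 at -1.36 and -0.57, Mt2 at -1.16 and -0.75, Mt1 at -1.32 and -1.45 and Ht at -0.63 and -1.71. The widest gap inside a group was that of Ht, whose first sample holds library 1. Rpl38, a 60S protein with a short mRNA, had CPM of 51.8 and 108 for con, 55.4 and 147 for Mt3, 83.8 and 220.2 for Mt2 and 219.6 and 66.8 for Ht (Ht against con: log2 fold change 0.85 ± 0.67, SE; adjusted p = 0.292, edgeR's quasi-likelihood test). Its groups overlapped.

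Between normal liver and high tumor-sized CRLM, genes of both subunits were among those that rose. A gene was called when edgeR's quasi-likelihood test gave a Benjamini-Hochberg adjusted p of at most 0.05 and a change of at least 2-fold. From con to Ht, 18 of 86 members were called higher and 1 lower, beside 25.8% of 17187 genes tested called higher and 24.1% lower, so the count of higher members was no more than that of genes in general. By the adjusted p alone 38 members were higher, beside 33% of genes, and 1 was lower, beside 31.6%. The median log2 fold change was 0.74 for the members and 0.09 for all genes. For 60S genes it was 0.72 (11 of 46 called higher) and for 40S genes 0.81 (6 of 30), and the remaining higher call was Rps12-ps3.

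Rplp0, the anchor of the stalk, had CPM of 768 and 659.7 in con samples and 722 in L-con, while Lt stood at 1015 and 1180, Mt3 at 932 and 1434, Mt2 at 1228 and 1677, Mt1 at 1272 and 1447 and Ht at 2138 and 1924 (Ht against con: log2 fold change 1.51 ± 0.33, SE; adjusted p = 0.00325). Both Ht samples lay above every other tissue sample, and the 3 libraries without tumor lay below. Rpl21, a 60S protein, had the largest rise, from 40.02 and 30.6 for con to 147 and 202 for Ht (2.30 ± 0.69; adjusted p = 0.0161), with 244, 209 and 63.3 CPM in Ht libraries 1, 2 and 3. Its call was lost with Ht library 1 not used (1.90; adjusted p = 0.0598), without either con replicate (2.51; adjusted p = 0.058 without the first and 2.12; adjusted p = 0.0942 without the second) and without Ht replicate 2 (2.06; adjusted p = 0.0619). Rps10 rose from 1.77 and 0.993 to 4.96 and 3.97 CPM (1.70 ± 0.45; adjusted p = 0.00869), at 12 to 146 counts in these libraries, and its reads are of uncertain assignment. The call of Rps10 was lost without con replicate 2 (1.33; adjusted p = 0.0692). Rps15a, a 40S protein, rose from 168 and 132 to 415 and 346 CPM (1.34 ± 0.29; adjusted p = 0.00327).

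The other stalk genes had smaller values. Rpl12 rose from CPM of 304 and 202 to 709 and 567 (log2 fold change 1.33 ± 0.37, SE; adjusted p = 0.0115), a call lost without con replicate 2 (1.07; adjusted p = 0.0865) or Ht replicate 1 (1.17; adjusted p = 0.0638). Rplp2 went from 194 and 160.3 to 363 and 282 (0.87 ± 0.24; adjusted p = 0.0115), which passed the adjusted p but not the 2-fold limit, and failed both without con replicate 2 (0.73; adjusted p = 0.0785) or Ht replicate 1 (0.68; adjusted p = 0.0888). Rplp1 had 879 and 553 for con and 1141 and 978 for Ht (0.57 ± 0.29; adjusted p = 0.113). Whether these 4 genes differ from each other in their change was not tested.

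Rps27l went the other way. Its CPM was 212 and 234 for con, 194 for L-con, 251 and 191 for Lt, 166 and 224 for Mt3, 163 and 112 for Mt2, 133 and 95.2 for Mt1 and 94.2 and 86.4 for Ht. It fell from con to Ht (log2 fold change -1.30 ± 0.27, SE; adjusted p = 0.00256), and both Ht samples lay below every other tissue sample. With total counts as the scale the value was -0.12 (adjusted p = 0.649), on which the median of all genes rose by 1.27. The sum of Rps27 and Rps27rt, which needs no division of reads between identical sequences, was 141 and 183 CPM for con, 398 and 469.7 for Lt, 144 and 525 for Mt3, 212 and 435 for Mt2, 207 and 172 for Mt1 and 554 and 214 for Ht, with wide gaps inside groups. Rps27l held 60.1% and 56.0% of the CPM on the 3 genes in con samples and 14.5% and 28.7% in Ht.

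**Figure D3:**
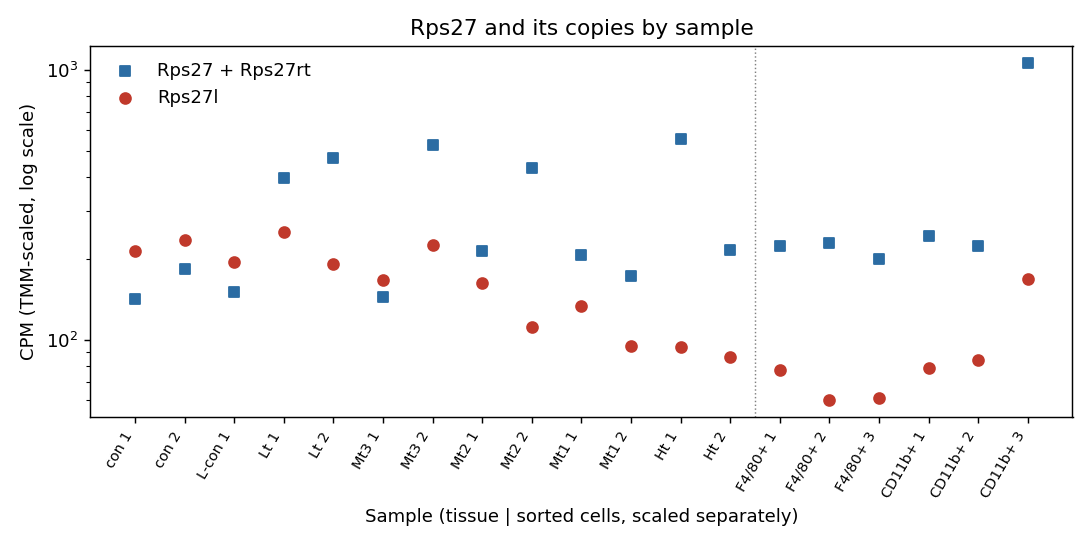
CPM (TMM-scaled, log axis) of the summed pair Rps27 and Rps27rt and of Rps27l in each tissue sample and each sorted library, the latter scaled separately. In tissue Rps27l is lowest in Ht, at 94.3 and 86.4 CPM, while the pair ranges from 141 to 554.

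The other paralogs are given with their partners. Rps4l, annotated as a transcribed processed pseudogene and so no member, fell from CPM of 26.6 and 25.6 in con to 4.07 and 3.55 in Ht (log2 fold change -2.77 ± 0.40, SE; adjusted p = 0.000437), while its partner Rps4x had 433 and 316 and 556 and 564 (0.58 ± 0.26; adjusted p = 0.077). Rpl36al had 0.797 and 0.993 for con and 0.466 and 0.313 for Ht (-1.16 ± 0.47; adjusted p = 0.0539), at 9 to 14 counts in these libraries, and Rpl36a rose from 103 and 101 to 333 and 175 (1.31 ± 0.44; adjusted p = 0.0269), with 495, 181 and 200.1 CPM in Ht libraries 1, 2 and 3. The call of Rpl36a was lost with Ht library 1 not used (0.84; adjusted p = 0.0806), without Ht replicate 1 (0.77; adjusted p = 0.209) and without con replicate 1 (1.32; adjusted p = 0.0959) or 2 (1.30; adjusted p = 0.105). Rpl22l1 had 52.4 and 23.7 against 40.4 and 45.96 (0.18 ± 0.34; adjusted p = 0.657) and Rpl22 210.1 and 181 against 275 and 254 (0.44 ± 0.20; adjusted p = 0.0778). Rpl7l1 had 116 and 104 against 105 and 109 (-0.04 ± 0.16; adjusted p = 0.833; 1.15 with total counts as the scale) and Rpl7 555 and 422 against 642 and 630.2 (0.38 ± 0.26; adjusted p = 0.218). Rpl3, whose paralog Rpl3l was not tested, went from 468 and 338 to 785 and 799 (0.98 ± 0.27; adjusted p = 0.0104), below the 2-fold limit. Rpl10, whose paralog Rpl10l had 0 counts, had 642 and 575 against 543 and 491 (-0.24 ± 0.24; adjusted p = 0.405; 0.95 with total counts as the scale). Differences between a paralog and its partner were not tested.

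Of the ribosomal proteins outside the name rule, Rack1, a 40S scaffold protein, rose from CPM of 580.4 and 428 in con to 1076 and 1079 in Ht (log2 fold change 1.09 ± 0.28, SE; adjusted p = 0.0071), a call lost without con replicate 2 (0.89; adjusted p = 0.0595). Rpsa, a 40S protein also known as a laminin receptor, went from 792 and 559 to 1312 and 1279 (0.94 ± 0.33; adjusted p = 0.0305), below the 2-fold limit. Fau, made as a ubiquitin-like fusion, had 361 and 335 against 403 and 363 (0.14 ± 0.20; adjusted p = 0.566).

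The scale and single libraries set how many members passed. TMM factors were 0.686 and 0.71 for con and 1.6 and 1.58 for Ht. With total counts in their place 80 members were called higher and 0 lower, beside 51.3% and 13.1% of all genes, with a median of 1.93. The members' median minus that of all genes was 0.65 with TMM and 0.66 with total counts. Without con replicate 2 or without Ht replicate 1, where 1 group held 1 sample, only some of the 19 calls stayed. Those of Rplp0, Rpl8, Rpl32, Rps15a, Rpl23a and Rps27l were among them both times. With Ht library 1 not used, 12 of the 19 stayed among 13 calls (11 higher and 2 lower, Rps27l and Rpl36al). Of all genes 25.4% were then called higher and 24.1% lower.

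**Figure D4:**
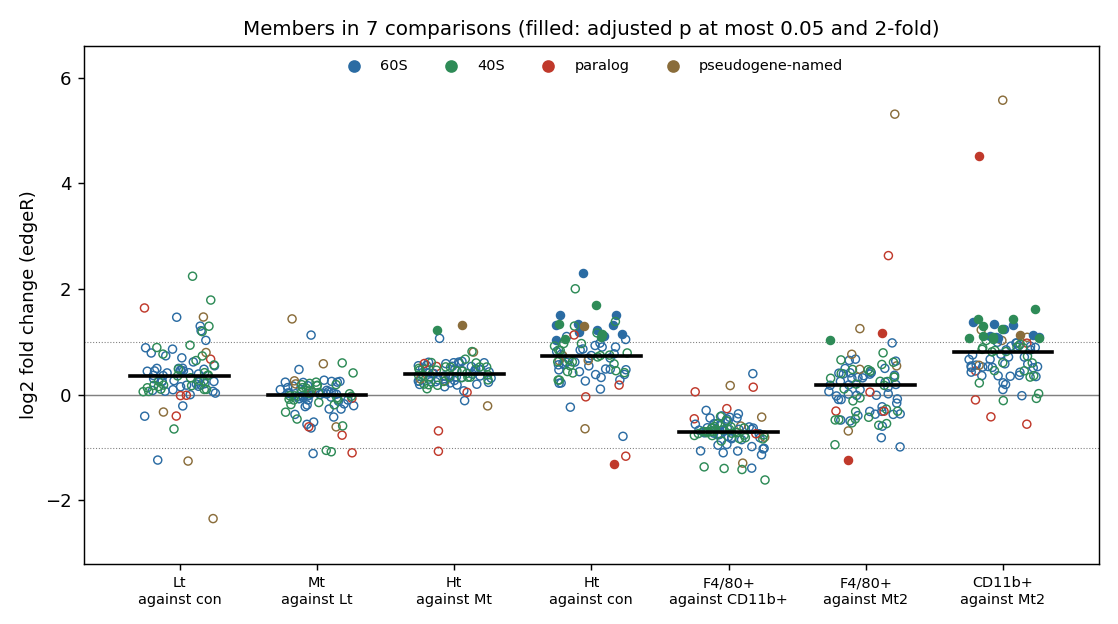
Log2 fold change (vertical axis) of each tested member in 7 comparisons, colored by class and filled where called, with the median as a bar; the points above 4 are Rpl39l and Rpl9-ps1, at 0 or 1 count in Mt2, whose fitted values are no measure of size. The median is 0.74 from con to Ht, -0.70 for F4/80+ against CD11b+ and 0.81 for CD11b+ against Mt2.

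Between neighbouring stages few members passed. From con to Lt edgeR called 0 members (8 had an unadjusted p under 0.05, as did 28.6% of all genes, and DESeq2 called 1 higher, Rpl36a, and 1 lower, Rpl10-ps3). Of all genes edgeR called 12.4% higher and 0.256% lower, and DESeq2 13.8% and 0.966%. The median was 0.36 for members and 0.10 for all genes, and with an offset for mRNA length, chosen after the data were seen, the members' median was 0.08. From Lt to Mt, the average over the 3 medium-sized groups, edgeR and DESeq2 both called 0 members (3 had an unadjusted p under 0.05 by edgeR, as did 19.1% of all genes), and edgeR called 0% of genes higher and 0% lower (DESeq2 0.768% and 0.64%). The members' median was 0.00.

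From Mt to Ht, 2 members were called higher and 0 lower, beside 1.5% and 13.4% of genes. Rps27a had CPM of 115 and 105 for Mt3, 321 and 339 for Mt2, 217 and 397 for Mt1 and 488 and 552 for Ht (log2 fold change 1.22 ± 0.38, SE; adjusted p = 0.0491). Both Ht samples lay above all 6 Mt samples, while the con samples stood far apart at 354 and 108. Rpl36a-ps1 had 0.201 and 0.313, 0.808 and 0.969, and 1.45 and 0.625 in the same order and 1.57 and 1.53 for Ht (1.32 ± 0.39; adjusted p = 0.0404). Its level was low, with a mean log2 CPM of -0.01. With at least 10 counts required in every library it was not among the calls. The members' median was 0.39 and that of all genes 0.00. Both calls were lost with either Ht sample left out, where Ht held 1 sample and the calls over all genes were lost too. They also changed with single Mt replicates left out. With total counts as the scale 24 members were called, all higher, where 15.1% of all genes were called higher and 10.3% lower. On that scale the median over all genes shifted by 0.55.

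Other parts of the translation machinery are given for con to Ht. Of 78 genes of ribosome biogenesis, which make and assemble the subunits, 19 were called higher and 3 lower, beside the 25.8% higher and 24.1% lower of all genes. Their median was 0.53. Npm1, a nucleolar chaperone, rose most (log2 fold change 2.24 ± 0.37, SE; adjusted p = 0.000793), then Rrp1b (2.21 ± 0.27; adjusted p = 0.000226), while Rcl1 (-2.50 ± 0.40; adjusted p = 0.000642) and Imp3 (-1.29 ± 0.22; adjusted p = 0.000828) fell with TMM. With total counts as the scale 66 of the biogenesis genes were called higher and 1 lower, where 51.3% of all genes were higher and 13.1% lower. Of 43 genes in a list of translation factors and related genes, 3 were called higher and 3 lower, beside the same TMM shares (29 and 0 with total counts, beside 51.3% and 13.1%), with a median of 0.39; Eef1g, an elongation factor subunit, had 1.71, Nap1l1, a nucleosome assembly protein and no translation factor, 1.28, Eif4a2, an RNA helicase, -1.94 and Eif5 -1.86. Of 17 growth regulators 5 were higher and 1 lower, beside the same 25.8% and 24.1%, with a median of -0.14. By the adjusted p alone 6 were higher and 8 lower, beside 33% and 31.6% of all genes. With total counts as the scale the median was 1.05, against 1.27 for all genes, with 9 called higher and 0 lower, where 51.3% of all genes were higher and 13.1% lower. Mycn (3.53 ± 0.43; adjusted p = 0.000219) and Myc (2.89 ± 0.29; adjusted p = 0.000117), transcription factors that drive ribosome production, rose. Eif4ebp2, a repressor of cap-dependent translation, fell with TMM (-2.12 ± 0.37; adjusted p = 0.000972). Mtor, a kinase of growth signaling, had -0.97 ± 0.24, also with TMM (adjusted p = 0.00684), within the 2-fold limit.

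Genes of the mitochondrial ribosome, which are encoded in the nucleus and serve the translation of mitochondrial mRNAs, had a negative median with TMM. Of 77, 21 were called lower and 2 higher, beside 24.1% and 25.8% of all genes, with a median of -0.64. The direction depended on the scale: with total counts the median was 0.55, with 14 higher and 1 lower, beside a median of 1.27 and shares of 51.3% and 13.1% for all genes. Mrps31 (-2.35 ± 0.38; adjusted p = 0.000706) and Mrpl16 (-1.95 ± 0.31; adjusted p = 0.000614) were lowest, and Mrps6 (1.74 ± 0.18; adjusted p = 0.000131) and Mrps25 (1.11 ± 0.21; adjusted p = 0.00156) highest. The difference between these and the cytosolic members was not tested.

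**Figure D5:**
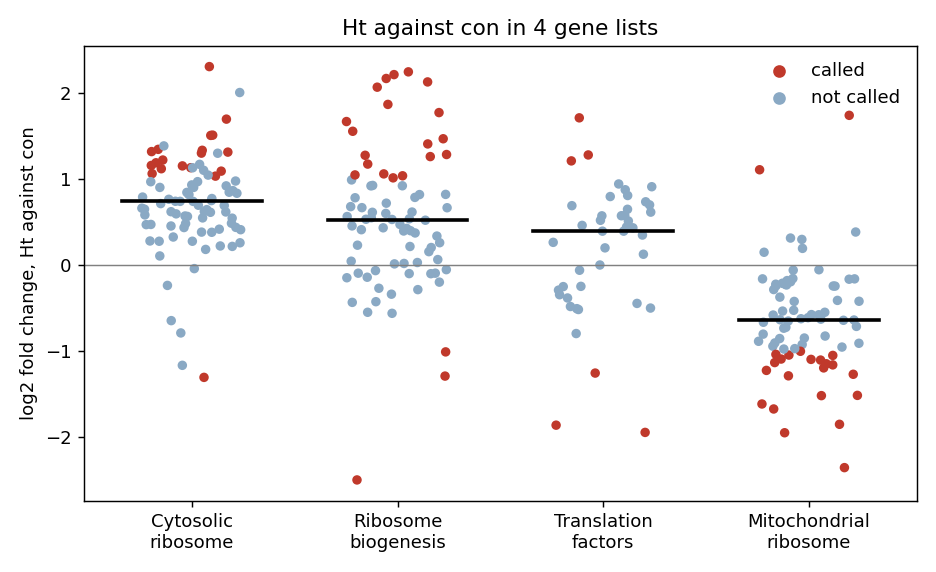
Log2 fold change from con to Ht (vertical axis, TMM scale) of tested genes in the lists, red where called, with medians as bars. The median is 0.74 for the cytosolic ribosome, 0.53 for ribosome biogenesis, 0.39 for translation factors and related genes and -0.64 for the mitochondrial ribosome, which is 0.55 with total counts as the scale.

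Summed markers of other cells rose, fell or stayed level from con to Ht, depending on the list. The summed CPM of 16 hepatocyte markers, none at 0, was 203700 to 240400 in con and 4486 to 6376 in Ht, with 16 called lower. That of 16 proliferation genes was 101.7 to 102.4 in con and 1775 to 1791 in Ht, with 16 called higher. For 14 macrophage markers it was 683 to 967 in con and 2213 to 2273 in Ht (7 higher, 3 lower), and for 11 fibroblast and stellate markers 443 to 597 and 5988 to 6786 (6 higher, 3 lower). Their part in the members' values was not tested.

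In the sorted cells members had lower values in F4/80+ than in CD11b+, but none was called. Of 86 members edgeR and DESeq2 both called 0 (8 had an unadjusted p under 0.05 by edgeR, as did 10.5% of all genes; the smallest adjusted p was 0.458), beside 0.00701% of 14263 genes called higher and 0.0701% lower by edgeR, and 0.932% and 1.17% by DESeq2. The median log2 fold change was -0.70, and 0.00 for all genes. In 44 members all F4/80+ libraries lay below all CD11b+ libraries, and in 0 above, where 11.8% of all genes lay below. Macrophage markers summed to 16230 to 19510 CPM in F4/80+ and 14620 to 22830 in CD11b+, neutrophil markers to 178 to 707 and 1176 to 5372, and hepatocyte markers to 355 to 522 and 321 to 678, with none at 0. Their part was not tested.

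CD11b+ library 3 set most of this difference. Rps29, a 40S protein, had CPM of 186, 189 and 196 in F4/80+ and 243, 246 and 1013 in CD11b+ (log2 fold change -1.40 ± 0.54, SE; adjusted p = 0.458). Rps28 had 102, 118 and 110.5 against 137, 144 and 599 (-1.42 ± 0.55; adjusted p = 0.459). For both genes the first 2 CD11b+ libraries lay a little above the F4/80+ libraries and the last far above. Rplp0 had 1606, 1758 and 1623 against 1707, 1714 and 3167, and its groups overlapped. Without CD11b+ replicate 3 the members' median was -0.14, and with the offset for mRNA length -0.14.

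Against the Mt2 tissue they came from, CD11b+ cells had more members called higher than F4/80+ cells, a difference in counts that was not tested. Sorted cells and tissue are in separate tables, so table, cell isolation and sample type cannot be told apart, and both comparisons share the Mt2 samples. For CD11b+ against Mt2, 22 of 88 members were called higher and 0 lower, beside 17.6% and 26.3% of 18407 genes. By the adjusted p alone 34 were higher, beside 24.2% of genes. The median was 0.81 for members and -0.08 for all genes. For F4/80+ against Mt2, 2 were called higher and 1 lower, beside 17.2% and 25.2% of genes, with medians of 0.18 and -0.12.

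In the CD11b+ comparison, on the joint CPM scale, Rps19, a 40S protein, had 259 and 359 in Mt2 and 509, 555 and 1438 in CD11b+ (log2 fold change 1.43 ± 0.38, SE; adjusted p = 0.00535), and Rps9, another, 538 and 590.3 and 1105, 1019 and 2442 (1.43 ± 0.33; adjusted p = 0.00203). Every CD11b+ library lay above both Mt2 samples for both genes. Without CD11b+ replicate 3 both values were below the 2-fold limit (0.79; adjusted p = 0.00751 for Rps19 and 0.91; adjusted p = 0.00098 for Rps9). With only the groups compared both calls were lost (1.44; adjusted p = 0.0677 for Rps19 and 1.44; adjusted p = 0.0524 for Rps9), and without Mt2 replicate 1 that of Rps19 was (1.22; adjusted p = 0.0559). Rps27l fell in F4/80+, with 170.4 and 117 in Mt2 and 70.8, 55.6 and 55.99 in F4/80+ (-1.24 ± 0.30; adjusted p = 0.00285), and had 70.4, 75.2 and 148 in CD11b+ (-0.56 ± 0.30; adjusted p = 0.127). Without Mt2 replicate 1 its F4/80+ value was below the 2-fold limit (-0.95; adjusted p = 0.0421), and none of the 3 F4/80+ calls stayed among the 2 then made (Rpl36a and Rpl10-ps3). Rpl36al was among the members called higher in F4/80+ (1.17 ± 0.42; adjusted p = 0.0302), at 27, 37 and 29 counts against 12 and 14 in Mt2. This call was lost with the replicate block (1.09; adjusted p = 0.062), without a filter on low counts (1.19; adjusted p = 0.157), with only the groups compared (1.17; adjusted p = 0.0548), without Mt2 replicate 1 (1.37; adjusted p = 0.0634) or 2 (1.01; adjusted p = 0.154) and without F4/80+ replicate 2 (1.07; adjusted p = 0.0707).

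The CD11b+ calls rested on library 3. Without it 2 of the 22 stayed, among them Rpl39l, where 17.2% of all genes were called higher and 25.2% lower. The members' median was then 0.21. Without CD11b+ replicate 1 or 2, 37 and 38 were called, where 17.8% of all genes were higher in each and 25.4% and 25.2% lower. Without Mt2 replicate 1, where Mt2 held 1 sample, only some of the 22 calls stayed. With the offset for mRNA length 6 were higher and 1, Rps27l, lower, beside 18.5% and 25.4% of all genes, and the median was 0.38. Rpl39l, a paralog with 85.0% of its coding bases in common with Rpl39, had 14, 8 and 22 counts in CD11b+, 3, 9 and 0 in F4/80+ and 1 and 0 in Mt2, so no fold is given. For CD11b+ against Mt2, the median over 78 ribosome biogenesis genes was -0.03 (0 called higher, 5 lower) and over 77 mitochondrial ribosome genes 0.15 (2 higher, 2 lower), beside the 17.6% higher and 26.3% lower of all genes.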

How the data were processed

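RNA-Seq counts of 14 tissue and 6 sorted-cell libraries were used. The authors deposited raw read counts per gene, without normalization or pooling, beside gene lengths. Per the submitters' processing notes, CASAVA, HISAT2 2.0.5 and featureCounts 1.5.0-p3 were used, with the builds GRCm38 and mm10. Whether counting used strand is not given in the sources used here. Columns were matched to samples by name, and 0 columns stayed unmatched.

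The members and gene lists were chosen with earlier results of these data known. Ht libraries 1 and 3 were summed, giving 13 tissue samples. Tests used R 4.3.3 with edgeR 4.0.16 (filterByExpr, TMM, quasi-likelihood F test, Benjamini-Hochberg adjustment over all genes tested) in 3 fits: tissue, sorted cells, and both together (19 samples). L-con entered the fits but was not compared. SE were derived from the F statistic. Levels are TMM-scaled CPM, with a pseudocount of 0.5 CPM for log2 differences between libraries and of 1 for medians. mRNA and coding lengths came from 1 principal GENCODE transcript per gene, found for 90 of the 92 members, and length classes used genes with a mean of at least 1 CPM. The 2-fold limit is that of the study.

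The rule for named genes took the paralogs with their partners, the stalk genes and the ribosomal proteins outside the name rule. From each comparison it took the 3 largest changes in each direction among members with an adjusted p of at most 0.05, groups that do not overlap and a mean log2 CPM of at least 1. It added the 3 highest and lowest by FPKM, the 3 largest differences each way between Ht libraries 3 and 1 at that mean level, and the 2 largest changes each way in other lists. Rpl38, Rps28 in sorted cells, Rps29, Rps15a, Rpl24 in Ht and the small sets of calls listed by name were chosen after their values were seen. Some genes that the rule names are not reported here. Scripts were tested on simulated data. DESeq2 1.42.0, other scalings, filters, length offsets, a replicate block and left-out libraries were alternatives.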

Additional observations from a re-analysis of the deposited data

How the results depend on the processing

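The following counts are of members called and the medians are log2 fold changes over members; the cause of each change was not tested. With total counts as the scale, 24 were called for Ht against Mt, 80 for Ht against con and 10 for CD11b+ against Mt2, where 15.1%, 51.3% and 16.1% of all genes were called higher, and the medians were 0.66 for Lt against con, 0.34 for Mt against Lt, 0.93 for Ht against Mt and 1.93 for Ht against con; Rpl7l1 (1.15) and Rpl10 (0.95) turned positive for Ht against con. DESeq2 called 2 for Lt against con, beside 13.8% of all genes higher and 0.966% lower. At least 10 counts in every library left 1 for Ht against Mt, beside 1.18% of all genes called higher and 15.4% lower. With no filter 10 were called for Lt against con, beside 9.43% of all genes higher and 1.28% lower. There were 6 for Mt against Lt (all genes 1.15% and 1.87%) and 33 for Ht against con (16.6% and 13.7%). Without the 2-fold limit there were 39 for Ht against con, beside 33% of all genes higher and 31.6% lower. For CD11b+ against Mt2 there were 34, beside 24.2% and 31.8%. Fitting only the groups compared gave 8 for Lt against con, beside 12.3% of all genes higher and 2.1% lower. For Ht against Mt it gave 1 (all genes 1.52% and 11.4%) and for CD11b+ against Mt2 it gave 2 (17.2% and 24.2%). The offset for gene length gave 11 for CD11b+ against Mt2, beside 17.2% of all genes higher and 26.2% lower. The offset for mRNA length, chosen after seeing the data, gave 7 there, beside 18.5% of all genes higher and 25.4% lower. For Lt against con it gave 1, beside 12% and 0.256%. Its medians were 0.08 for Lt against con, 0.24 for Mt against Lt and -0.14 for F4/80+ against CD11b+. With Ht library 1 or library 3 not used, Ht against Mt kept 1 call each. Of all genes 1.54% and 1.29% were then higher and 13.3% and 13.1% lower. Without library 1 the median for Ht against con was 0.53.

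Leaving out 1 replicate at a time gave 7 to 27 calls for Ht against con, 0 to 3 for Ht against Mt, 0 to 1 for Mt against Lt, 1 to 3 for F4/80+ against Mt2 and 2 to 38 for CD11b+ against Mt2. Without Mt2 replicate 1, none of the 3 F4/80+ calls against Mt2 was among the 2 then made. Medians then ranged from 0.20 to 0.50 for Lt against con, -0.90 to -0.14 for F4/80+ against CD11b+, 0.02 to 0.45 for F4/80+ against Mt2 and 0.21 to 1.06 for CD11b+ against Mt2. An arm left with 1 sample was assumed to vary like the other groups. Without either Ht sample the calls over all genes were lost for Ht against Mt too, so these fits say nothing about members. For Mt against Lt, calls over all genes were absent in every fit but that without Mt2 replicate 1. The ends of the CD11b+ range came without CD11b+ replicates 3 and 2. Of all genes 17.2% and 17.8% were then called higher and 25.2% in each lower.

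Samples of different groups share replicate numbers, but no label says that a number marks a shared mouse or day, and correlations of same-numbered deviations ran from -0.273 (Mt2 and Ht) to 0.435 (Lt and Mt2). The replicate block gave 1 call for Lt against con, beside 13% of all genes higher and 0.628% lower. For CD11b+ against Mt2 it gave 6, beside 16.8% and 25.3%. The median for F4/80+ against Mt2 was -0.02 with the block, against 0.18 without it. The block made 3 calls there (Rpl36a, Rps27l and Rpl10-ps3), of which 1, Rps27l, was among the 3 made without it. Of all genes 17.3% were higher and 24% lower there. With the numbers of con crossed (r = -0.123 for con and Lt), chosen after seeing the data, Lt against con had 1 call. The shares of all genes were then 13.9% higher and 0.611% lower.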
